A study of Mus musculus with 3 samples.

Results

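Lipid-associated macrophage (LAM) nuclei were nuclei of mouse liver that carried RNA of at least 2 different genes among Gpnmb, Atp6v0d2, Mmp12, Chst11 and St18, adding up to at least 0.1% of the unique molecular identifiers (UMIs) of the nucleus, and of no more than 1 gene among Stab2, Ptprb, Kdr, Reln, Dcn and Skap1, which mark endothelial, stellate and T cells. Of 28336 nuclei kept in 3 libraries, 534 met this rule: 0 of 8494 in the normal mouse, 396 of 8921 in STZ-HFHC mouse 1 and 138 of 10921 in STZ-HFHC mouse 2. The nuclei were therefore selected on the measured UMIs of these 11 genes, whose values are given as a description without a test.

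The study sequenced nuclear RNA from frozen liver (single-nuclei RNA sequencing, sNuc-Seq) of 1 normal male C57BL/6J mouse on a normal diet (ND) and 2 males of the same strain with liver fibrosis related to metabolic dysfunction-associated steatohepatitis (MASH). In the model (STZ-HFHC), 0.2 mg of streptozocin, a toxin of insulin-producing beta cells, was injected on day 3 after birth and a high-fat, high-cholesterol diet was given from week 4 of age. No genetic change was stated for any of the mice. The titles of the samples carry codes of no stated meaning that differ between the ND mouse and both STZ-HFHC mice, so that whatever the codes mark and the model cannot be told apart. The total was 42715797 UMIs in kept nuclei for ND, 44350401 for STZ-HFHC 1 and 55632923 for STZ-HFHC 2, and LAM nuclei had a median of 1726 UMIs in mouse 1 and 2292.5 in mouse 2.

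LAMs are macrophages that gather where lipid and dying cells must be cleared, in obese fat, atherosclerotic plaque and fatty liver. They take up lipid through scavenger receptors, split cholesteryl esters and triglycerides in acid lysosomes, store or export the products, and are known for TREM2, CD9, galectin-3, lipoprotein lipase and the lysosomal glycoprotein GPNMB. Lysosomes are acidified by the vacuolar proton pump (V-ATPase), and the transcription factors of the MiT/TFE family (MITF, TFEB, TFE3 and TFEC) switch on lysosomal genes through a short promoter motif, the E-box. In liver, Kupffer cells are the resident macrophages, and monocytes that enter from blood can become macrophages of either kind.

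LAM nuclei made up 4.44% of the nuclei of STZ-HFHC 1 (95% exact binomial interval 4.02 to 4.89%) and 1.26% of those of STZ-HFHC 2 (1.06 to 1.49%), a mean of 2.85% ± 2.25 (SD, n = 2). The share in the first mouse was 3.51 times that in the second, and the intervals of both, which cover counting error only, did not overlap. In the ND mouse 0 of 8494 nuclei were found, which allows a share of up to 0.0353%, and 1 ND nucleus had enough of the marker genes but failed the upper limit. With 1 normal mouse there is no test between the conditions. Another 370 and 111 nuclei of the STZ-HFHC mice carried the LAM genes but more than 1 of the 6 limit genes. No LAM barcode occurred in more than 1 library, although libraries shared between 29 and 32 barcodes.

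The 5 selecting genes were each far above the level in other mononuclear phagocytes (MPs) of the same liver. Other MP nuclei were the 498 nuclei of mouse 1 and 291 of mouse 2 with at least 2 of Adgre1, Csf1r, Mpeg1, Cybb, Slc11a1, Tbxas1, Fcgr1 and Ms4a7, at least 0.1% of UMIs, the same upper limit and no LAM call, and levels are given as CPM, the UMIs of a gene per 1000000 UMIs of all nuclei of a class. Gpnmb, a lysosomal and surface glycoprotein (ENSMUSG00000029816, chr6:49036546-49070929 in build GRCm38), was at 1709.6 and 1759 CPM in LAM nuclei of mice 1 and 2 and at 162 and 105 in other MP nuclei. Atp6v0d2, a V-ATPase subunit of osteoclasts and macrophages (ENSMUSG00000028238, chr4:19876841-19922605), was at 688 and 725 against 34.6 and 9.08. Mmp12, the macrophage elastase (ENSMUSG00000049723, chr9:7344381-7369499), was at 1187 and 858 against 75.2 and 36.3. Gaps in the selecting genes were built in by the selection. LAM nuclei had to carry at least 2 of the 5 genes, and no nucleus that met the rule could enter the comparison class. Chst11, which adds sulfate to chondroitin (ENSMUSG00000034612, chr10:82985498-83195900), was at 793 and 566 against 70.3 and 49.0. St18, a zinc finger transcription factor (ENSMUSG00000033740, chr1:6487231-6860940), was at 568 and 388 against 57.4 and 18.2. Endothelial-marker nuclei of mouse 1 held all 5 genes above other MP nuclei, such as Gpnmb at 188 and Mmp12 at 132 CPM. In mouse 2 they did so for Atp6v0d2, Mmp12 and Chst11, but not for Gpnmb (60.3) and St18 (14.5). Kupffer-marker nuclei had Mmp12 at 127 and 44.4. The source of this RNA was not tested. In all 8494 ND nuclei together, Gpnmb was at 0.14 CPM (6 UMIs) and Mmp12 at 0.445. The 26 other MP nuclei of the ND mouse had 0 UMIs of each of the 5 genes, which allows up to 59.2 CPM.

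**Figure D1:**
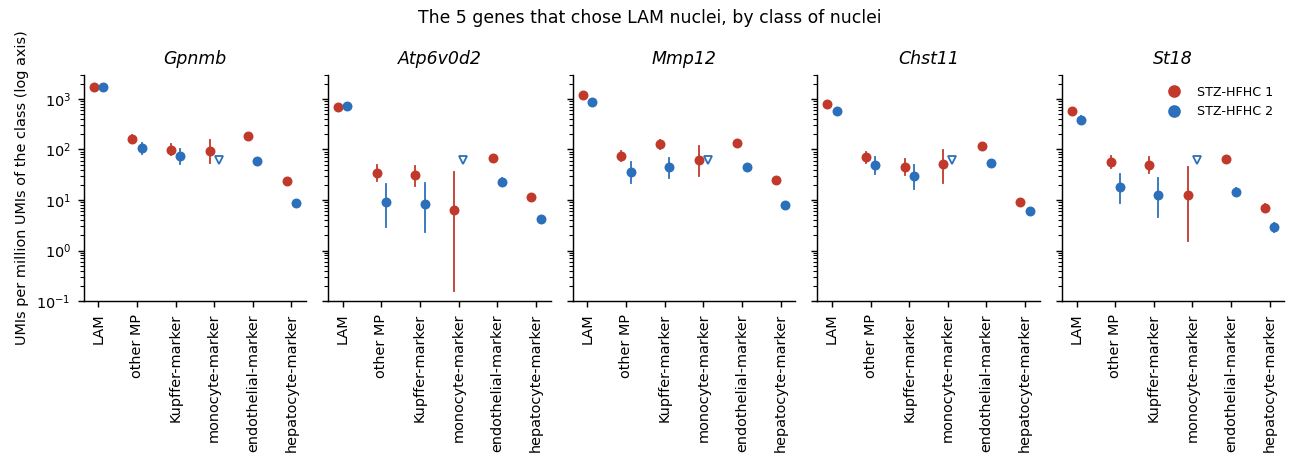
UMIs of each gene scaled to all UMIs of a class (CPM) for the 5 selecting genes in classes of nuclei of STZ-HFHC mouse 1 (red) and mouse 2 (blue), on a log axis. Points are levels with exact 95% Poisson intervals, and open triangles mark the upper limit of 3 UMIs for a class at 0. Gpnmb stands at 1709.6 and 1759 in LAM nuclei and at 162 and 105 in other MP nuclei.

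The rule allows a nucleus to qualify on any pair of genes, so nuclei differ in how many of the genes they held. Among LAM nuclei, 202 in mouse 1 and 66 in mouse 2 had UMIs of 2 of the genes, and 36 and 11 had UMIs of all 5. The 12 LAM markers outside the rule (Lgals3, Cd36, Trem2, Cd9, Spp1, Lpl, Fabp5, Cd63, Plin2, Ctsd, Ctsl and Lipa) summed to 2692 CPM in nuclei with 2 selecting genes and to 8634 in those with 5 in mouse 1, and to 2130 and 5434 in mouse 2. Median UMIs per nucleus also went from 1529 to 3246 and from 1862 to 5009 over the same steps, and the part of depth in the order was not tested. Just inside the threshold of 0.1%, the lowest LAM nuclei had 0.1%, 0.101% and 0.104% in mouse 1, and the highest nuclei with 2 genes outside it had 0.0987%, 0.0981% and 0.0979%.

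**Figure D2:**
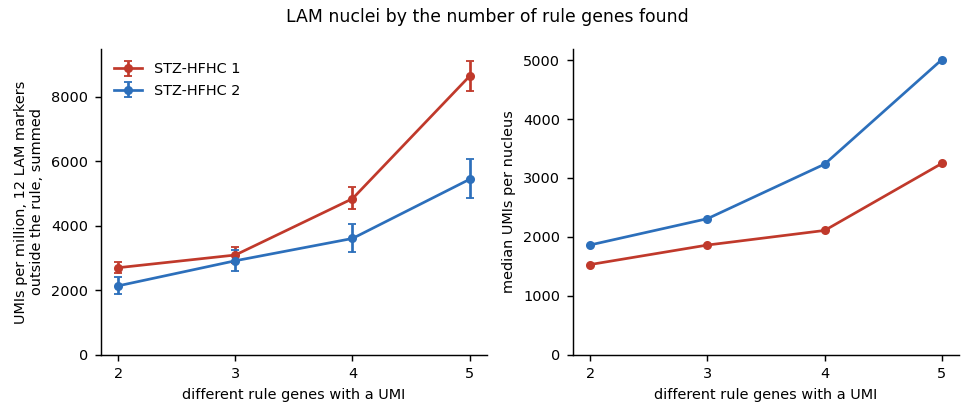
LAM nuclei grouped by how many of the 5 selecting genes had a UMI, in STZ-HFHC mouse 1 (red) and mouse 2 (blue). Left, summed CPM of 12 LAM markers outside the rule with exact 95% Poisson intervals; right, median UMIs per nucleus. Both panels go up from 2 to 5 genes, from 2692 to 8634 CPM and from 1529 to 3246 UMIs in mouse 1.

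The label was checked against macrophage genes. Of LAM nuclei, 75.5% in mouse 1 and 73.9% in mouse 2 had a UMI of at least 1 of the 8 MP genes, and 159 and 50 met the full MP rule. The MP genes summed to 1334 and 1164 CPM in LAM nuclei, to 2167 and 1933 in other MP nuclei, which were selected on them, and to 251.2 and 146.7 in all nuclei outside the LAM class. The Kupffer cell genes (Clec4f, Vsig4, Cd5l, Timd4, Marco, Cd163 and Folr2) summed to 1308 and 855 CPM in LAM nuclei, to 1532 and 1211 in other MP nuclei and to 604 and 454 in endothelial-marker nuclei, and the part of free RNA in the LAM level was not tested. All 7 were detected in LAM nuclei of each mouse, with Cd5l the most abundant at 923 and 399. By a rule of 2 such genes, 19.7% and 23.2% of LAM nuclei would also have been Kupffer-marker nuclei. The monocyte genes (Ccr2, F13a1, Vcan, Ly6c2 and Chil3) were at 70.2 and 45.2 CPM against 422 and 389 in other MP nuclei, with Ly6c2 at 0 in both mice.

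Genes of other liver cells were also found in LAM nuclei, and their part in the results was not tested. The 6 hepatocyte genes summed to 5598 and 7662 CPM in LAM nuclei and to 6052 and 8718 in other MP nuclei, with Cps1 the most abundant at 3354 and 5231. The endothelial genes (Stab2, Ptprb and Kdr, all genes of the upper limit) were at 334 and 316 against 367 and 447, levels that the limit itself held down in both classes. Themis, a T cell gene outside the limit, was at 81.9 and 85.0 against 83.2 and 136. The B cell genes were at 228 and 282 against 413 and 461, almost all from Bank1, while Cd79a and Cd79b were at 0 in LAM nuclei of both mice. Mitochondrial UMIs took 0.341% and 0.245% of LAM UMIs and 0.323% and 0.163% of those of other MP nuclei. The stellate cell genes outside the limit (Lrat, Col1a1 and Pdgfrb) were at 15.2 and 2.66 against 9.90 and 7.27, from 13 and 1 UMIs in LAM nuclei, and with the limit genes Reln and Dcn at 76.0 and 18.6 against 65.3 and 47.2. The highest 8% of doublet scores (Scrublet) of each library held 5.05% and 5.07% of LAM nuclei and 3.41% and 1.37% of other MP nuclei, and the counts of genes without these nuclei stayed within 1.5 times those given next.

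Beyond the selecting genes, LAM nuclei were compared with other MP nuclei over 11159 genes, for which UMIs were summed per mouse and class and compared with edgeR's quasi-likelihood test with the mouse as a term (adjusted p under 0.05, 2 mice). LAM nuclei were higher in 227 genes, 2.03% of those tested, with a median log2 ratio of 1.13, and lower in 165, 1.48%, with a median of −0.94. The median log2 ratio of all genes tested was −0.02. By a rule of size without a test (at least 50 UMIs and a 2-fold difference in the same direction in each mouse), 102 of 7257 genes were higher, 1.41%, and 59 were lower, 0.813%. The genes of the rules for either class were left out before the adjustment. Without the term for the mouse the counts fell to 42 and 13, with every nucleus thinned to 1000 UMIs they were 121 and 82, and with LAM and other MP nuclei alone in the fit they were 455 and 300.

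The 20 higher genes with the largest ratio in the mouse where it was smaller included galectin-3, proteases and several genes not usually listed as macrophage markers. Lgals3, galectin-3, a lectin of phagocytes (ENSMUSG00000050335, chr14:47367751-47386160), was at 795 and 842 CPM in LAM nuclei and at 173 and 159.8 in other MP nuclei, a log2 ratio of 2.31 ± 0.17 (SE, n = 2 mice, adjusted p = 2.1e-07 with edgeR). It was detected in 206 of 396 and 99 of 138 LAM nuclei. When all nuclei were thinned to 1000 UMIs, 39.3% and 48.5% of LAM nuclei had a UMI of Lgals3, beside 14.3% and 13.6% of other MP nuclei and 8.34% and 6.4% of endothelial-marker and 2.80% and 1.81% of hepatocyte-marker nuclei. The unthinned shares were 52.0% and 71.7% of LAM, 24.9% and 23.0% of other MP and 22.1% and 15.97% of endothelial-marker nuclei, whose median depths were 2214.5 and 2207 UMIs. Before thinning, LAM and other MP nuclei had median depths of 1726 and 1749.5 UMIs in mouse 1 and of 2292.5 and 1720 in mouse 2, where LAM nuclei were the deeper.

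Rassf8, a Ras association domain protein of cell junctions, was at 230.4 and 202 against 41.6 and 29.1 (log2 ratio 2.58 ± 0.21, adjusted p = 6e-07). Fam129b, a phosphoprotein also called niban 2, was at 303 and 215 against 61.4 and 34.5 (2.42 ± 0.21, adjusted p = 1.1e-06). Fbxo32, the muscle ubiquitin ligase atrogin-1, was at 158 and 130.2 against 15.8 and 19.98 (3.09 ± 0.29, adjusted p = 2.4e-06). In all 3, both LAM levels lay far above both levels of other MP nuclei. Anpep, the surface aminopeptidase N (CD13) of myeloid cells, was at 139 and 104 against 21.8 and 16.3 (2.68 ± 0.30, adjusted p = 1.3e-05). Igf2bp2, an RNA-binding protein, was at 113 and 141 against 28.7 and 25.4 (2.19 ± 0.31, adjusted p = 0.00021). Tenm4, a teneurin best known from neurons, was at 158 and 255 against 24.7 and 25.4 (3.03 ± 0.49, adjusted p = 0.0034). Mfsd12, a lysosomal cysteine importer, was at 85.4 and 112 against 15.8 and 29.1 (2.20 ± 0.34, adjusted p = 0.00044). Of the 20 genes, Igf2bp2, Tenm4, Lonrf3, Plk2, Anxa1, Il7r, Adam8, Mmp13 and Emp1 lost their call when the mouse was not a term, with adjusted p between 0.0516 and 0.607.

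**Figure D3:**
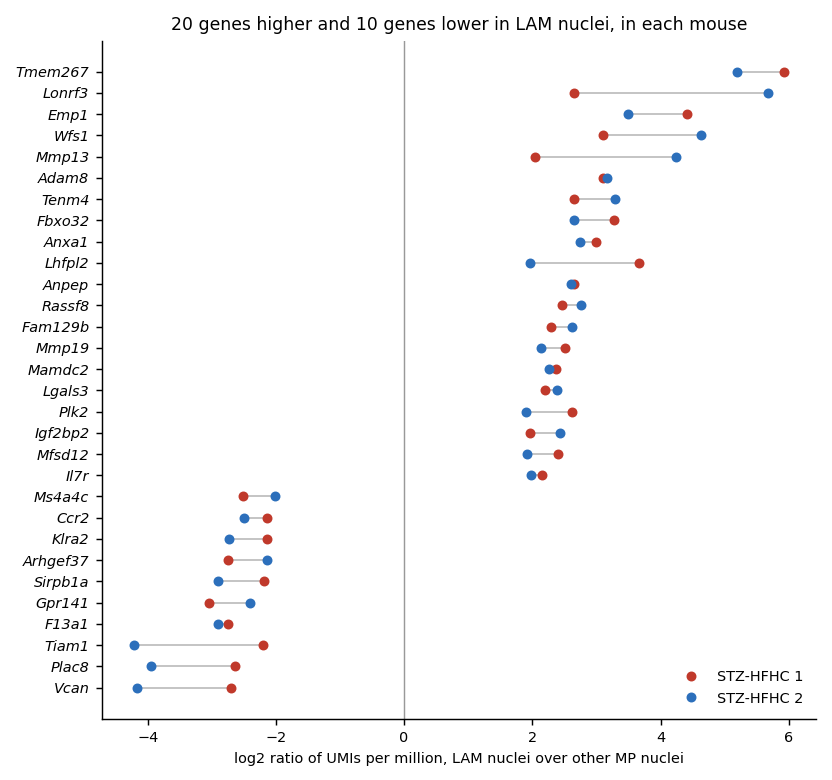
log2 ratio of CPM, LAM nuclei over other MP nuclei, in STZ-HFHC mouse 1 (red) and mouse 2 (blue), for the 20 genes with the largest smaller ratio among genes higher in LAM nuclei and the 10 among genes lower. Lgals3 lies at 2.20 and 2.39, and Lonrf3, Mmp13, Lhfpl2 and Tiam1 show the widest gaps between the mice.

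Some of the highest ratios came from few nuclei. Tmem267, a membrane protein of little known function (ENSMUSG00000074634, chr13:119488039-119611059), was at 270.1 and 165 CPM against 3.96 and 3.63, a log2 ratio of 5.91 ± 0.55 (adjusted p = 9e-06, edgeR, 2 mice). Its 231 UMIs in mouse 1 came from 30 of 396 LAM nuclei, up to 46 in one nucleus, and its 62 UMIs in mouse 2 from 22 of 138. The annotation has the genes 3110070M22Rik and Gm48265 on the opposite strand within its span. Without nuclei over 5000 UMIs in any class the log2 ratio was 5.60 with an adjusted p of 0.305, so the call was lost while the ratio stayed. Emp1, an epithelial membrane protein, was at 116 and 29.2 against 4.95 and 1.82 (4.43 ± 0.46, adjusted p = 6.7e-06) and came from 40 and 6 nuclei. Wfs1, the wolframin of the endoplasmic reticulum, was at 55.0 and 66.4 against 5.94 and 1.82 (3.73 ± 0.52, adjusted p = 0.00013) and came from 25 and 20 nuclei. Emp1 and Wfs1 stayed called without the deep nuclei, but Emp1 lost its call without the term for the mouse (adjusted p = 0.0884) and was under the filter on low counts after thinning.

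The UMIs of the 12 LAM markers outside the rule are described by nucleus, without a test of whether their spread is beyond counting error. The 10 nuclei with most such UMIs held 34.2% of them in mouse 1 and 32.3% in mouse 2. The share of these markers per nucleus had a median of 0.272% and a maximum of 2.96% in mouse 1, and a median of 0.230% and a maximum of 2.24% in mouse 2, and 25 and 7 nuclei had none. Nuclei over 5000 UMIs were 17 of 396 and 13 of 138 LAM nuclei, with 15.7% and 24.8% of the UMIs of the class, and 11 of 498 and 1 of 291 other MP nuclei. Leaving these deep nuclei out of every class gave 183 genes higher and 161 lower, of which 165 and 142 were also called with them. Among the genes named here, Tmem267, Ctsd, Fabp5, Fth1, Ftl1, Cxcl2, Il1rn and Atp6v1h (adjusted p = 0.0514) lost their call.

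Most markers known from LAMs of other tissues were higher. Of the 12 markers outside the rule, 10 were higher (83.3%, against 2.03% of all genes tested) and none lower, with a median log2 ratio of 1.60 beside −0.02 for all genes. Without the term for the mouse 2 of the 12 were called, at a median of 1.57. Without nuclei over 5000 UMIs 8 were called. Their sum was 4302 and 3164 CPM against 1665 and 1124. In the 26 other MP nuclei of the ND mouse the sum was 533 CPM, from 27 UMIs, with Trem2, Cd9, Spp1, Lpl, Fabp5 and Cd63 at 0. Cd9, a tetraspanin, was at 270.1 and 149 against 79.2 and 47.2 (1.74 ± 0.18, adjusted p = 7.5e-06). Lpl, lipoprotein lipase, was at 878 and 537 against 379 and 138 (1.49 ± 0.18, adjusted p = 4.1e-05). Spp1, osteopontin, was at 108 and 21.3 against 22.8 and 5.45 (2.20 ± 0.37, adjusted p = 0.00088), and 34 of its 92 UMIs in mouse 1 and 6 of 8 in mouse 2 lay in 1 nucleus each. Trem2, the lipid-sensing receptor for which these cells are often named, was at 47.9 and 58.4 against 15.8 and 16.3 and missed the threshold (1.70 ± 0.50, adjusted p = 0.0665). Its levels in other MP nuclei lay below those in LAM nuclei in both mice, and it passed against Kupffer-marker nuclei (2.01, adjusted p = 0.0343). Ctsl, a cathepsin, was the other marker not called (0.50 ± 0.23, adjusted p = 0.347). Of the 46 genes tested from the study's table of its macrophage cluster 3, 36 were higher and none lower, with a median log2 ratio of 0.89. Without the term for the mouse 10 were higher. That table was chosen on these samples and is not independent evidence. Lgals3, Lpl and Cd36 of the 12 markers are in it too, so the 83.3% is not independent evidence of the label either. Among called genes of the lists below, it also holds Atp6v1b2, Psap, Ctsb, Ctss, Fnip2, Abca1, Fth1 and Ftl1.

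**Figure D4:**
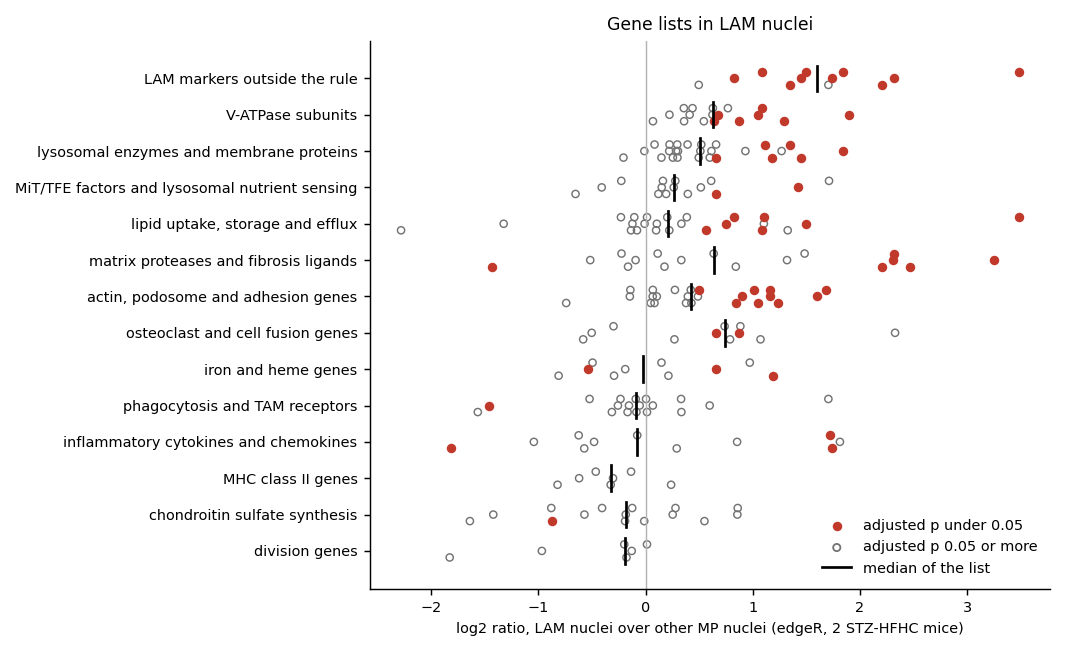
log2 ratio of LAM over other MP nuclei (edgeR, 2 STZ-HFHC mice) for each tested gene of 14 lists. Filled points have an adjusted p under 0.05, open points do not, and black bars are list medians, from 1.60 for LAM markers outside the rule to −0.33 for MHC class II genes, beside −0.02 for all 11159 genes.

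Of the proton pump that acidifies lysosomes, 7 of 17 subunits were higher (41.2%, against 2.03% of all genes) and none lower, with a median log2 ratio of 0.63. The count was 4 without the term for the mouse. Atp6v0a1, a subunit of the membrane sector, was at 276 and 558 CPM against 101 and 109 (1.90 ± 0.24, adjusted p = 0.0001). Atp6v1a, the catalytic subunit, was at 337 and 343 against 135 and 145 (1.29 ± 0.14, adjusted p = 1.1e-05). Atp6v1b2, the other subunit of the catalytic ring, was at 493 and 584 against 260.4 and 242 (1.09 ± 0.16, adjusted p = 0.00021). In each of these the levels of both mice were apart from those of other MP nuclei. Atp6v1c1, Tcirg1, Atp6v1h and Atp6v0b were also higher, with log2 ratios of 1.04, 0.87, 0.64 and 0.67, of which Atp6v1h lost its call without the deep nuclei and Atp6v1c1 and Atp6v0b with thinned nuclei. The 17 subunits summed to 3094 and 3219.9 CPM against 1716 and 1704, and 6 of 17 were also higher against Kupffer-marker nuclei (2.82% of all genes) and 9 of 17 against monocyte-marker nuclei (3.55%).

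Of 26 lysosomal enzymes and membrane proteins, 6 were higher (23.1%, against 2.03% of all genes) and none lower, with a median log2 ratio of 0.50. The count was 1 without the term for the mouse. Psap, the precursor of saposins, was at 1606 and 1044 CPM against 735 and 443 (1.18 ± 0.13, adjusted p = 9.4e-06). Ctsb, cathepsin B, was at 1185 and 914 against 561 and 416 (1.11 ± 0.12, adjusted p = 1.1e-05). Lipa, the acid lipase that splits cholesteryl esters, was at 316 and 292 against 137 and 99.9 (1.34 ± 0.18, adjusted p = 8.6e-05). A UMI of Psap was found in 307 and 106 LAM nuclei, of Ctsb in 275 and 96 and of Lipa in 146 and 56. In 1 nucleus each lay 173 of 1373 Psap UMIs of mouse 1 and 18 of 110 Lipa UMIs of mouse 2. Ctsd was at 485 and 276 against 181 and 99.9 (1.45 ± 0.16, adjusted p = 9.4e-06), but 95 of its 415 UMIs in mouse 1 lay in 1 nucleus, and without nuclei over 5000 UMIs the log2 ratio was 0.91 with an adjusted p of 0.148. A further protein-coding gene model, Gm49369, overlaps Ctsd on its strand, and its effect on the Ctsd count was not tested. Cd63 and Ctss were higher with log2 ratios of 1.84 and 0.66.

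**Figure D5:**
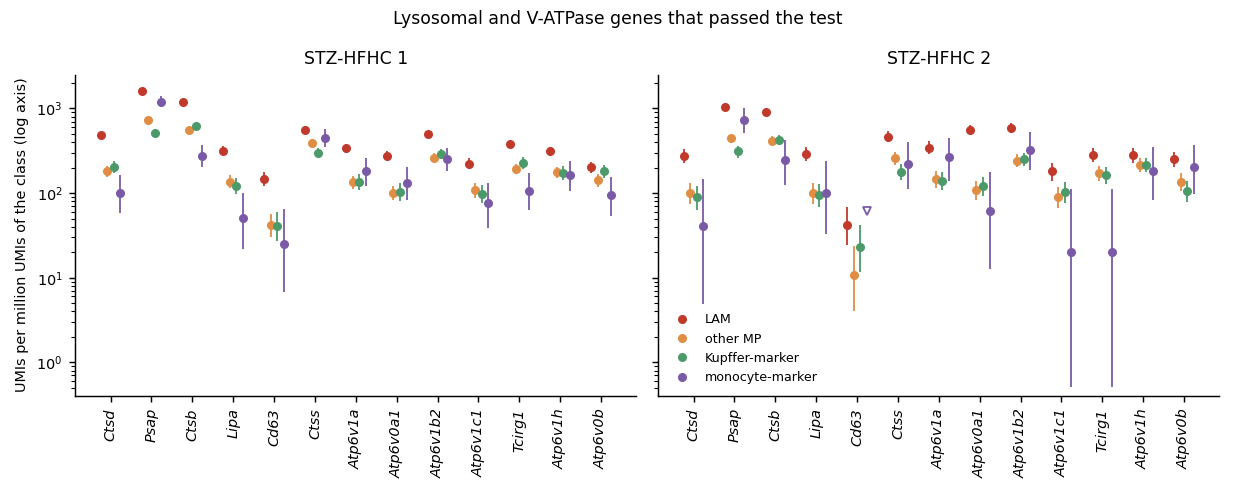
CPM (log axis) of lysosomal and V-ATPase genes higher in LAM nuclei, in LAM, other MP, Kupffer-marker and monocyte-marker nuclei of each STZ-HFHC mouse, with exact 95% Poisson intervals and an open triangle at the limit of 3 UMIs for a class at 0. LAM nuclei lie above the other MP nuclei for each gene, for example 337 and 343 against 135 and 145 for Atp6v1a.

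Because MiT/TFE factors bind E-boxes near the start of lysosomal genes, the promoters of the genes higher in LAM nuclei were read. In the RefSeq promoter windows (250 bases before to 50 after a gene start, build GRCm38.p6), the letters TCANGTG were searched on both strands. This motif includes TCACGTG and so overlaps the shorter CACGTG. Of the 227 genes higher in LAM nuclei, 174 matched a gene with 225 windows, and 15.6% of those windows held TCANGTG, beside 13.8% for the lower genes, 13.4% for all genes tested and 14.3% of all 32851 windows. CACGTG was in 10.7% of the windows of higher genes, 8.21% for lower genes, 9.75% for genes tested and 7.15% of all windows. The AP-1 motif TGANTCA was in 8.44%, 9.23%, 5.63% and 7.81%, and GAGGAAG, a motif of PU.1 and related factors, in 13.3%, 16.4%, 13.9% and 13.6%. Among 20 of the higher genes that belong to the lists of lysosomal proteins, V-ATPase subunits or LAM markers, 14 had 18 windows, and 7 of these held TCANGTG (38.9%), 4 CACGTG (22.2%), 2 TGANTCA (11.1%) and 5 GAGGAAG (27.8%), a set too small and too much chosen by hand to be read against the shares above. The stretches around the motif in these 7 windows follow, 5′ to 3′ on the strand of the gene, with the motif on either strand in capitals. A match is a description of letters and not of binding.
Atp6v1a (V-ATPase catalytic subunit A), chr16:44139338-44139417, minus strand: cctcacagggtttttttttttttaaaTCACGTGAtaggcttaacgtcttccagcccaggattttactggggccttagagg
Atp6v0b (V-ATPase membrane subunit), chr4:117887313-117887392, minus strand: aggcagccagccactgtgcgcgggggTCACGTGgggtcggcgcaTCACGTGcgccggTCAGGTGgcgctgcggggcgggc
Ctsd (cathepsin D), chr7:142387873-142387952, minus strand: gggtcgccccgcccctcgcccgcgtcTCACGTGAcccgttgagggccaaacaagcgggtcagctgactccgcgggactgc
Plin2 (lipid droplet coat), chr4:86670011-86670090, minus strand: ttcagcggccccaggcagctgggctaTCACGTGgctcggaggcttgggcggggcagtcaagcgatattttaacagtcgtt
Lgals3 (galectin-3), chr14:47373610-47373689, plus strand: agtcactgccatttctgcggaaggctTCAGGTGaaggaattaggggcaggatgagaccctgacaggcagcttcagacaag
Ctss (cathepsin S), chr3:95526778-95526835, plus strand: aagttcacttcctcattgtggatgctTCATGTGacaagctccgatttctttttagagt
Tcirg1 (V-ATPase membrane subunit of osteoclasts), chr19:3905181-3905229, minus strand: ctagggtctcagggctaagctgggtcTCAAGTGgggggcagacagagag
Atp6v1a, Atp6v0b, Ctsd and Plin2 held the full TCACGTG, Atp6v0b at 2 places and once more as a variant, and the others a variant at the fourth base. The Ctsd window held it once more, on the other strand 245 bases before the start and outside the printed stretch.

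Most regulators of these genes did not pass the test. Of 15 genes of the MiT/TFE factors and lysosomal nutrient sensing, 2 were higher and none lower (2.03% of all genes were higher), with a median log2 ratio of 0.26. In the fit without the term for the mouse 1 of 15 was called, and Mitf was not (adjusted p = 0.388). Fnip2, a partner of folliculin at the lysosome surface, was at 965 and 1007 CPM against 376 and 361 (1.42 ± 0.14, adjusted p = 2.4e-06). Mitf was at 1532 and 1583 against 1207 and 796 (0.66 ± 0.15, adjusted p = 0.014), with log2 ratios of 0.34 in mouse 1 and 0.99 in mouse 2. Tfeb was at 143 and 138 against 132 and 118 (0.16 ± 0.17, adjusted p = 0.805), and Tfec at 188 and 162 against 248 and 218 (−0.41 ± 0.17, adjusted p = 0.29).

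Of 24 genes tested for lipid uptake, storage and efflux, 7 were higher (2.03% of all genes were) and none lower, with a median log2 ratio of 0.21. In the fit without the term for the mouse 0 of the 24 were called. Besides Lpl, the group held Pparg, the nuclear receptor of lipid storage, at 394 and 476 CPM against 227 and 167 (1.11 ± 0.16, adjusted p = 0.00025). Plin2, which coats lipid droplets, was at 365 and 372 against 174 and 173 (1.09 ± 0.15, adjusted p = 0.00014). Cd36, a fatty acid and oxidised LDL receptor, was at 716 and 476 against 372 and 303 (0.82 ± 0.13, adjusted p = 0.00049). Soat1, which esterifies cholesterol, and Abca1, which exports it, were also higher, with log2 ratios of 0.75 and 0.57. Fabp5, a fatty acid carrier, was at 46.8 and 15.9 against 4.95 and 0 in mouse 2 (3.49 ± 0.59, adjusted p = 0.0011), and lost its call without the deep nuclei (adjusted p = 0.0603).

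Of 24 actin, podosome and adhesion genes, 10 were higher (2.03% of all genes were) and none lower, with a median log2 ratio of 0.42. When the mouse was not a term, 2 were called. Of the 10, Arhgap10, Myo1e, Fmn1, Tns3, Myof, Evl, Arhgap25 and Iqgap1 were also in the study's cluster 3 table. That table was chosen on these samples, so the count of this list is not independent evidence. Arhgap10 was at 884 and 794 CPM against 303 and 219.8 (1.68 ± 0.15, adjusted p = 1.6e-06). Myo1e, a membrane-bound myosin, was at 979 and 903 against 467 and 378 (1.16 ± 0.12, adjusted p = 6.7e-06), although it was also at 489 and 441 in all nuclei outside the class. Fmn1, a formin, was at 869 and 776 against 392.04 and 349 (1.16 ± 0.15, adjusted p = 8.6e-05). Itgax, the integrin CD11c, was at 76.0 and 61.1 against 12.9 and 40.0, so that the gap was wide in mouse 1 and small in mouse 2 (1.60 ± 0.42, adjusted p = 0.0376), and its call was lost with DESeq2 and with thinned nuclei.

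Of 17 matrix proteases and fibrosis ligands tested, 5 were higher and 1 lower (2.03% and 1.48% of all genes), with a median log2 ratio of 0.63. Without the term for the mouse 2 were higher and none lower. Besides Lgals3 and Spp1, these were proteases. Mmp19, a matrix metalloproteinase, was at 98.2 and 50.5 CPM against 16.8 and 10.9 (2.46 ± 0.32, adjusted p = 6.1e-05). Adam8, a leukocyte sheddase, was at 63.1 and 55.8 against 6.93 and 5.45 (3.25 ± 0.48, adjusted p = 0.00024). Mmp13, a collagenase, was at 58.5 and 15.9 against 13.9 and 0 (2.31 ± 0.50, adjusted p = 0.0095). All 3 were detected in few nuclei, Mmp13 in 30 and 6. Tgfbi, a matrix protein of monocytes and macrophages, was lower, at 53.8 and 29.2 against 139.6 and 89.0 (−1.43 ± 0.23, adjusted p = 0.00072).

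Other lists had few or no called genes, beside 2.03% higher and 1.48% lower of all genes tested. Of 15 chondroitin sulfate genes tested beside Chst11, none was higher and 1 was lower: Ust, which adds sulfate to uronic acid, was at 199 and 223 CPM against 380.2 and 385 (−0.87 ± 0.17, adjusted p = 0.004). The Ust call was lost without the term for the mouse (adjusted p = 0.131). Of 11 osteoclast and cell fusion genes, Tcirg1 and Mitf, both also members of lists above, were higher (18.2%) and none lower, with a median log2 ratio of 0.74, and neither was called without the term for the mouse (adjusted p = 0.521 and 0.388). Among the members not called, the osteoclast phosphatase Acp5 was at 49.1 and 37.2 against 28.7 and 21.8 (0.79 ± 0.31, adjusted p = 0.249). Of 18 phagocytosis and TAM receptor genes, none was higher and 1 was lower, Timd4, whose call was also lost without the term for the mouse (adjusted p = 0.109). Mertk, the receptor of efferocytosis, was at 1328 and 1509 against 1136 and 1122 (0.33 ± 0.12, adjusted p = 0.191). None of 7 MHC class II genes was called, and their median log2 ratio was −0.33: Ciita, their transactivator, was at 74.8 and 61.1 against 126 and 118 (−0.82 ± 0.25, adjusted p = 0.0763). None of 6 division genes was called, and Mki67 gave 4 UMIs and 3 UMIs in LAM nuclei of mice 1 and 2. Chit1, the chitinase that the study targeted, had 0 UMIs in LAM and in other MP nuclei of both mice. It was rare elsewhere too, with a UMI in 0.0673% and 0.0988% of hepatocyte-marker nuclei. The paper found CHIT1 protein in MPs of this model by flow cytometry. It proposes that RNA of CHIT1, TREM2 and CD9 lies mostly outside the nucleus. The counts here are of nuclear RNA, and that proposal was not tested.

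Of 11 cytokine and chemokine genes, 2 were higher and 1 lower (2.03% and 1.48% of all genes), with a median log2 ratio of −0.08. None of these calls was left without the term for the mouse. Il1b was at 8.19 and 18.6 CPM against 38.6 and 43.6 (−1.82 ± 0.43, adjusted p = 0.0192). With every nucleus thinned to 1000 UMIs its log2 ratio was −0.83 (adjusted p = 0.732, edgeR), and none of the 9 list genes then tested was called. Il1rn, the antagonist of the interleukin-1 receptor, was at 46.8 and 47.8 against 19.8 and 5.45 (1.73 ± 0.45, adjusted p = 0.0346), and Cxcl2 at 59.6 and 13.3 against 13.9 and 10.9 (1.72 ± 0.42, adjusted p = 0.0227). Il1rn and Cxcl2 lost their call without the deep nuclei (adjusted p = 0.632 and 0.0901). Il7r, a cytokine receptor chain of lymphocytes, was at 76.0 and 66.4 against 16.8 and 16.3 (2.12 ± 0.40, adjusted p = 0.0027). Of T cell genes, Themis had the levels given above and the limit gene Skap1 was at 19.9 and 15.9 in LAM nuclei against 11.9 and 29.1 in other MP nuclei, and the part of T cell RNA in the Il7r result was not tested.

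Of 10 iron and heme genes, the ferritin chains Fth1 and Ftl1 were higher and Slc40a1 lower (2.03% and 1.48% of all genes), with a list median log2 ratio of −0.02, and none of the 3 calls was left without the term for the mouse. Fth1 was at 678 and 337 CPM against 304 and 145 (1.19 ± 0.13, adjusted p = 1.1e-05), and Ftl1 at 718 and 311 against 441 and 213 (0.65 ± 0.13, adjusted p = 0.0054). Without the deep nuclei their log2 ratios were 0.76 and 0.27, with adjusted p-values of 0.059 and 0.621. Slc40a1, the iron exporter ferroportin of Kupffer cells, was at 391.7 and 444 against 561 and 648 (−0.53 ± 0.13, adjusted p = 0.0192).

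Of the 10 lower genes with the largest ratio in the mouse where it was smaller, F13a1, Vcan and Ccr2 belong to the monocyte genes given above. F13a1, a coagulation factor subunit of monocytes (ENSMUSG00000039109, chr13:36867178-37050244), was at 29.2 CPM in LAM nuclei of both mice against 199 and 227 (−2.89 ± 0.35, adjusted p = 6.6e-05). Gpr141, an orphan receptor, was at 29.2 and 39.9 against 245 and 218 (−2.85 ± 0.27, adjusted p = 2.4e-06). Ccr2, the receptor that brings monocytes to tissue, was at 25.7 and 13.3 against 116 and 81.7 (−2.28 ± 0.30, adjusted p = 8.1e-05). Vcan, Plac8, Tiam1, Sirpb1a, Arhgef37, Klra2 and Ms4a4c had log2 ratios between −3.25 and −2.36. Of the 10, Ccr2, Plac8 and Tiam1 lost their call without the term for the mouse (adjusted p = 0.0938, 0.138 and 0.0884). Against Kupffer-marker nuclei, 2 of these 10 were lower, Plac8 (−1.83, adjusted p = 0.0407) and Klra2 (−1.89, adjusted p = 7.5e-05), and F13a1, Gpr141 and Ccr2 had log2 ratios of 0.61, 0.25 and 0.52 (adjusted p = 0.678, 0.863 and 0.696). Of the 7 Kupffer cell genes, 2 were lower (1.48% of all genes were) and none higher. Timd4, a receptor for phosphatidylserine, was at 39.8 and 50.5 against 108 and 143 (−1.46 ± 0.23, adjusted p = 0.00044), and Clec4f, a lectin of Kupffer cells, at 132 and 130.2 against 217 and 267 (−0.83 ± 0.16, adjusted p = 0.0033). Without the term for the mouse neither was called (adjusted p = 0.109 and 0.142). Cd5l, Vsig4, Marco, Cd163 and Folr2 were not called, with log2 ratios of −0.09, −0.41, −0.31, −1.57 and 0.56 (adjusted p = 0.88, 0.29, 0.889, 0.105 and 0.759).

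LAM nuclei were also compared with each kind of macrophage that markers could separate. The Kupffer-marker class held 350 and 237 nuclei with at least 2 Kupffer genes and the monocyte-marker class 74 and 22 with at least 2 monocyte genes. The 3 comparisons share the same LAM nuclei, and many comparison nuclei belong to more than one class, so their results are given side by side and not as support of each other. Against Kupffer-marker nuclei 313 of 11112 genes were higher, 2.82%, and 107 were lower, 0.963%. Against monocyte-marker nuclei 394 of 11089 were higher, 3.55%, and 267 were lower, 2.41%. With total UMIs as library size, 288 were higher and 324 lower, and with DESeq2 239 and 341, so the larger count changed sides. Fnip2 had log2 ratios of 1.42, 1.54 and 2.25 against other MP, Kupffer-marker and monocyte-marker nuclei, Arhgap10 of 1.68, 1.80 and 3.45, and Lgals3 of 2.31, 2.38 and 2.39, each called in all of them. Fam129b and Psap had log2 ratios of 0.78 (adjusted p = 0.0977) and 0.59 (adjusted p = 0.025) against monocyte-marker nuclei and of 3.29 and 1.70 against Kupffer-marker nuclei, and the difference between the comparisons was not tested. Xylt1, which starts chondroitin chains, was higher than in Kupffer-marker nuclei (2.28, adjusted p = 1.5e-06) and lower than in monocyte-marker nuclei (−0.88, adjusted p = 0.0206). Of the 12 LAM markers, 11 were higher against Kupffer-marker and 9 against monocyte-marker nuclei, and of the 24 adhesion genes 14 and 10, beside 2.82% and 3.55% of all genes.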

How the data were processed

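Nuclei from 3 frozen livers (1 ND, 2 STZ-HFHC mice) were profiled with the 10x 3′ kit. The authors deposited raw UMI counts per gene and barcode; the processing notes name Cell Ranger 7.0.1 and build mm10, and whether intronic reads were counted is not given in the sources used here. Of 30989 barcodes, 28336 with 200 to 5000 genes and at most 5% mitochondrial UMIs were kept; the cell count that the methods give after these limits is that of all barcodes.

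The members and gene lists were chosen with earlier results of these data known. UMI counts were summed per mouse and class and tested with edgeR 4.0.16 (TMM, filterByExpr, robust quasi-likelihood fit, Benjamini-Hochberg adjustment) over LAM, comparison, endothelial-, T-cell- and hepatocyte-marker classes of 2 mice, with the mouse as a term; SE is the log2 ratio over the root of F. P-values rest on 2 mice. Named genes were the selecting genes, the 20 higher and 10 lower called genes with the largest smaller ratio of both mice and 50 UMIs (no mt-, Gm or Rik names), up to 5 lowest p-values per list, and 8 fixed genes; others were named after their values were seen. Levels have exact 95% Poisson intervals, for counting error only; a count of 0 allows 3 counts. Gene positions are from GENCODE M21. Scrublet called 1 doublet in all, too few to be used, so the highest 8% of scores were left out as an alternative. On simulated data (LAM against other MP, 11178 genes), 27 of 50 genes raised 2-fold and 48 of 50 raised 4-fold were recovered but 33 of 50 lowered 4-fold, with 11 false calls. DESeq2 1.42.0, other rules, thinning and filters were alternatives.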

Additional observations from a re-analysis of the deposited data

Results flagged for a closer look

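Among barcodes over the limits on genes or mitochondrial share, which were left out of the main comparisons, the LAM rule was met by 8 of 1002 in STZ-HFHC 1 (0.798%). It was met by 0 of 930 in ND and by 0 of 721 in STZ-HFHC 2. This was singled out because it lay outside the main comparisons and above the ND mouse. The share was below the 4.44% among kept nuclei of the same library. With these barcodes kept, the LAM class of STZ-HFHC 1 had 404 nuclei, and 209 genes were higher and 114 lower than in other MP nuclei.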

How the results depend on the processing

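In the fits across all genes run as alternatives, no log2 ratio of a named gene called against other MP nuclei changed sign. Taking the 5 nuclei highest for a gene out of the LAM class alone, a trim chosen after seeing the data that can only lower LAM levels, put Il1rn in mouse 1 (0.926 times other MP nuclei) and Mamdc2 (0.868), Plk2 (0.782), Ftl1 (0.878), Spp1 and Cxcl2 (both at 0 UMIs) in mouse 2 below other MP nuclei. The counts of genes higher and lower than in other MP nuclei (227 and 165) changed by over 1.5 times without the term for the mouse (42 and 13), with LAM and other MP nuclei alone (455 and 300) and with every nucleus thinned to 1000 UMIs (121 and 82). With at least 3 selecting genes 354 were higher, and with a share of 0.2% 343. Without the term for the mouse, 54 genes were higher and 11 lower than in Kupffer-marker nuclei, and 197 and 144 than in monocyte-marker nuclei. Against monocyte-marker nuclei, DESeq2 gave 239 higher and 341 lower, and total UMIs as library size gave 288 and 324. In both, more genes were lower than higher, unlike the 394 and 267 of the main fit. By the rule of size, thinning left 44 and 35 genes, and 3 selecting genes gave 96 lower. The share of LAM nuclei was 2.17% and 0.659% in mice 1 and 2 with 3 selecting genes, 3.18% and 0.897% with a share of 0.2%, and 2.86% and 0.861% with Gpnmb, Atp6v0d2 and Mmp12 alone. Of the named genes, 45 lost their call without the term for the mouse, 12 after thinning, among them Spp1, Cd63, Il1b and Tgfbi, and 8 without nuclei over 5000 UMIs. Leaving out those deep nuclei was also chosen after seeing the data. The causes were not tested. No paired analysis was possible because the ND group holds 1 mouse; the mouse term pairs classes of the same liver. Leaving out 1 mouse leaves edgeR no residual degrees of freedom, so those values carry no test. Trem2 had 41 and 22 UMIs in LAM nuclei.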
